A study of Homo sapiens with 6 samples.

Results

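The 54 genes described here encode subunits of the oxidative phosphorylation complexes I to V, chosen by name from the 60664 genes of the count table. Of these, 13 lie on the mitochondrial genome, which is every protein it encodes, and 41 lie in the nucleus. They were measured by RNA sequencing in SKOV3 cells, a long-established line from a human ovarian carcinoma. In the shJUP group (3 libraries) JUP was knocked down, and the shNC group (3 libraries) is the control. JUP encodes plakoglobin, which links cadherins to the cytoskeleton at cell junctions. The protocols call the replicates of a group independent and biological, and say nothing of cell age, the vector, the number of hairpin sequences or whether the lines were clones. What lower JUP did and what else the hairpins did cannot be told apart.

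Complexes I to IV pass electrons from NADH and succinate to oxygen, and complexes I, III and IV pump protons across the inner mitochondrial membrane while they do so. Complex V, the ATP synthase, uses that gradient to make ATP. Complexes I, III, IV and V are built from subunits of both genomes, whereas complex II (succinate dehydrogenase, which is also an enzyme of the citric acid cycle) is entirely nuclear. The mitochondrial genes are read as long shared transcripts by the polymerase POLRMT with TFAM, then cut apart at tRNAs. The nuclear subunit genes are read from different promoters, and factors such as NRF1 and the ETS-family GABP act on many of them.

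The ends of the mitochondrial mRNAs are shown because the libraries were made from oligo(dT)-selected RNA, which favours RNA with a poly(A) tail. Tails were not measured here, that of MT-ND6 included. In the GENCODE 29 transcripts (GRCh38), 6 of the 13 reading frames stop short of a whole codon, 5 with a single T and 1 with TA, and the poly(A) tail completes their stop codon. The last 15 bases of 5 transcripts follow, with the incomplete or terminal codon in capitals. MT-CO1 ends in AGA and MT-ND6 in AGG. MT-ND6 is the one member read from the opposite strand.
MT-ND1, chrM:4248-4262, plus strand: tccccctcaaaccTA
MT-CO3, chrM:9976-9990, plus strand: attgatgagggtctT
MT-CYB, chrM:15873-15887, plus strand: tactcaaatgggccT
MT-CO1, chrM:7431-7445, plus strand: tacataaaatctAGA
MT-ND6, chrM:14149-14163, minus strand: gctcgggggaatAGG

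MT-ATP8 and MT-ATP6 share 46 bases, which bears on how reads were divided between them. The stretch is 22.2% of MT-ATP8 and 6.75% of MT-ATP6. It is given in capitals after 8 bases of MT-ATP8 alone, and it opens with the ATG of MT-ATP6 and closes with the TAG of MT-ATP8.
MT-ATP8 end, chrM:8519-8572, plus strand: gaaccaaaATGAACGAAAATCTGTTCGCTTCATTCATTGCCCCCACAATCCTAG
MT-ND4L and MT-ND4 share 7 bases in the same way. Nuclear copies of mitochondrial genes take reads as well. The copy MTATP6P1 and its relatives held 11.5% to 12.3% of the counts of MT-ATP6 and its copies together, and the copies of MT-ND6 held 1.46% to 1.95% of theirs. For the other 11 members the share was 0.339% or less. Values of MT-ATP6 and MT-ATP8 are therefore uncertain, and with no strand setting in the sources used here, reads of MT-ND6 cannot be told from reads of the opposite strand.

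Library totals ranged from 17456121 to 19279514 estimated counts. Levels are counts scaled to a common library size (CPM) after TMM scaling, a correction for library composition, and log2 fold changes are shJUP over shNC. Differences were tested two-sided by the quasi-likelihood method of edgeR, and p-values were adjusted by Benjamini-Hochberg over the 15867 genes that passed its filter on low counts. All 54 members passed it. At an adjusted p under 0.05 edgeR called 0 of 15867 genes (0.0%), 1594 (10.0%) had an unadjusted p under 0.05, and DESeq2 called 200 of 13691 genes (1.46%). Of 8 ovarian carcinoma markers 7 reached 1 CPM (MUC16 did not), summing to 3531 to 5812 CPM in shJUP and 5490 to 8090 CPM in shNC. Of 6 leukocyte markers 0 reached 1 CPM, against 4 of 6 fibroblast markers (summed 10.6 to 260 CPM in shJUP, 41.1 to 471 CPM in shNC) and 4 of 5 endothelial markers (8.93 to 11.8 CPM and 6.69 to 11.6 CPM). The part of these markers in the results below was not tested.

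The targeted gene was lower in shJUP, but not evenly. Its level (JUP, ENSG00000173801) was 39.9, 93.6 and 24.6 CPM in the 3 shJUP libraries and 104, 133 and 101 CPM in the 3 controls. The log2 fold change was -1.10 (SE 0.44, edgeR adjusted p = 0.47), and DESeq2 with the library number as a block called it (adjusted p = 0.047). DESeq2 without the block (0.18) and edgeR with it (0.12) did not. The log2 fold change was -1.80 without shJUP 2, -0.93 without shJUP 1 and -0.75 without shJUP 3. Every shJUP library lay below every control, with shJUP 2 close to them. Departures of genes from their group mean were shared most by the libraries of number 2 (correlation 0.58). The correlation was lower for number 1 (0.18) and number 3 (0.28). It was higher across numbers for shJUP 1 with shNC 3 (0.21) and shJUP 3 with shNC 1 (0.46). Pairing by number is thus an assumption for numbers 1 and 3, and the blocked fits and ratios within numbers rest on it. Values for a fit with the number as a block are given where they change a call.

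The mitochondrially encoded mRNAs were on balance lower in shJUP, by a median log2 fold change of -0.30 against -0.01 over all tested genes. The nuclear subunit mRNAs had a median of 0.06. Among the 13 mitochondrial members 12 had a log2 fold change below 0 and 1 (MT-ND3) above, and among the 41 nuclear members 10 lay below and 31 above 0, where 51.4% of all genes lay below and 48.6% above. edgeR called 0 members of either kind. The smallest adjusted p was 0.47 among the mitochondrial and 0.40 among the nuclear members. Members share libraries, and the mitochondrial ones also share precursor transcripts, so their number is no measure of replication.

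**Figure D1:**
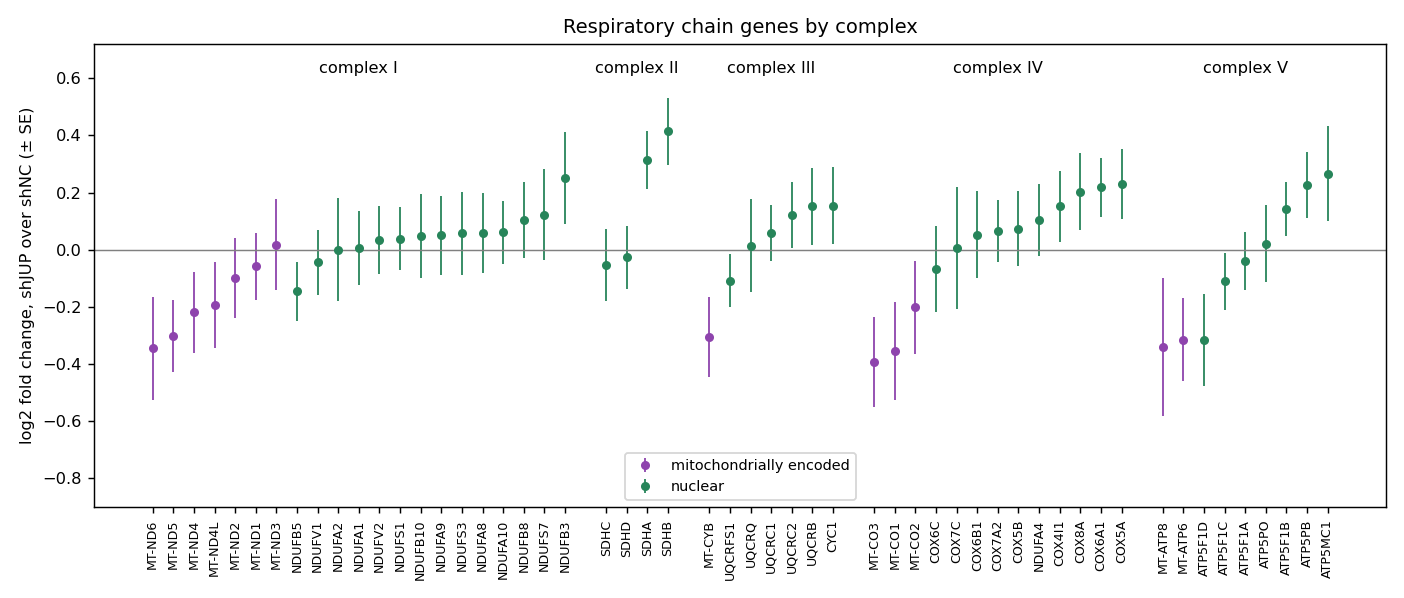
Log2 fold change, shJUP over shNC, of each of the 54 members (y axis, edgeR, bars are ± SE, 3 libraries a group), by complex and ordered by value within the mitochondrial (purple) and nuclear (green) genes. The mitochondrial members run from -0.39 (MT-CO3) to 0.02 (MT-ND3), and the highest nuclear member is SDHB of complex II.

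The same contrast appeared in the shares of all counts. The 13 mitochondrial members took 3.03%, 4.00% and 3.51% of the counts in shJUP 1, 2 and 3 and 4.09%, 4.49% and 3.85% in shNC 1, 2 and 3, or 3.51 ± 0.48% against 4.14 ± 0.32% (SD, n = 3 each). The groups overlapped, since shJUP 2 lay above shNC 3, but each shJUP library lay below the control of its own number. The 41 nuclear members took 0.390%, 0.416% and 0.438% in shJUP and 0.385%, 0.383% and 0.387% in shNC. The controls were 0.385 ± 0.002% (SD, n = 3) and each shJUP library lay above them. These are shares of unscaled counts. After TMM scaling shJUP 1 did not keep that place, with a nuclear median log2 ratio of -0.07 to the control mean.

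The count of mitochondrial over nuclear members was 7.78, 9.61 and 8.01 in shJUP 1, 2 and 3 and 10.6, 11.7 and 9.95 in shNC 1, 2 and 3. The 3 shJUP ratios lay below the 3 control ratios, with shJUP 2 nearest to them. This ratio is a sum over chosen genes and was given no test. In RNA of whole cultures, fewer cells of a type and less RNA per cell cannot be told apart.

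**Figure D2:**
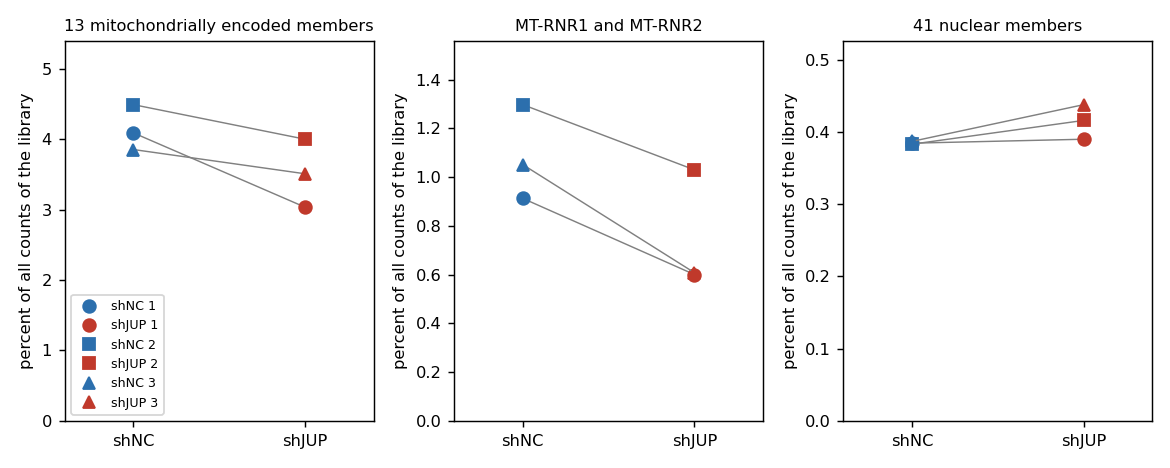
Percent of all counts of a library (y axes, each from 0) taken by the 13 mitochondrial members, the 2 mitochondrial rRNAs and the 41 nuclear members, in shNC (blue) and shJUP (red). Lines join libraries of the same number. Without TMM scaling, the mitochondrial shares of shJUP lie below the control of their number and the nuclear shares above.

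The 6 libraries did not move evenly. Taken against the mean of the controls, the median log2 ratio of the 13 mitochondrial members was -0.53, -0.02 and -0.23 in shJUP 1, 2 and 3 and -0.01, 0.09 and -0.10 in shNC 1, 2 and 3. For 13 of 13 members shJUP 1 was the lowest of the 6 libraries, while shJUP 2 stood among the controls. Without shJUP 1 the median log2 fold change was -0.13. The level of JUP in the same libraries was 39.9, 93.6 and 24.6 CPM. Against the control mean, shJUP 2 had both the highest JUP level and the smallest mitochondrial difference of the 3. The lowest JUP level was that of shJUP 3, and the largest difference that of shJUP 1. This order depends on the reference. Within numbers, the mitochondrial share of counts was 4.00% in shJUP 2 against 4.49% in shNC 2, and 3.51% in shJUP 3 against 3.85% in shNC 3. By that reference the gap of shJUP 3 was the smaller. A link between JUP level and mitochondrial level was not tested. The corresponding medians of the 41 nuclear members were -0.07, 0.10 and 0.17 in shJUP and -0.01, 0.00 and 0.00 in shNC, and shJUP 3 was the highest library for 20 of them and shJUP 1 the lowest for 16.

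**Figure D3:**
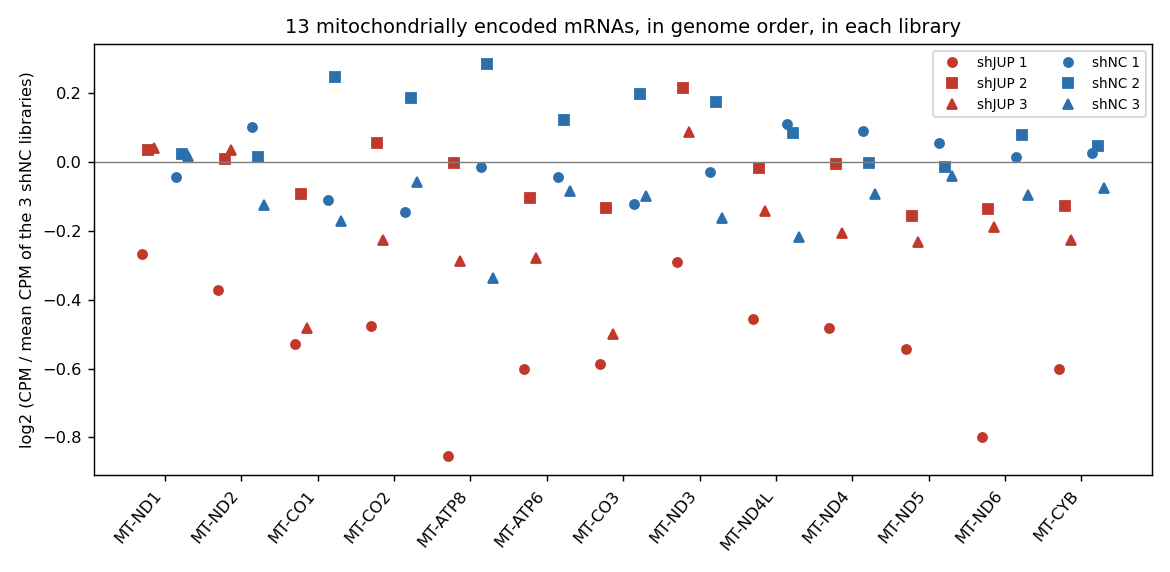
Log2 ratio of CPM to the mean of the 3 shNC libraries (y axis) for each mitochondrial member, in genome order (x axis). Libraries are shJUP (red) and shNC (blue) 1 (circle), 2 (square) and 3 (triangle). The library shJUP 1 is the lowest point of every gene.

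The cytochrome c oxidase (complex IV) genes MT-CO1, MT-CO2 and MT-CO3 encode its catalytic core, and all 3 were lower in shJUP in each pair of libraries with the same number. MT-CO3 (ENSG00000198938) stood at 3231, 4420 and 3430 CPM in shJUP 1, 2 and 3, against 4456, 5566 and 4534 CPM in shNC 1, 2 and 3. The groups did not overlap, though shJUP 2 lay just under shNC 1, and the log2 fold change was -0.39 (SE 0.16, unadjusted p = 0.040, edgeR adjusted p = 0.47). Within numbers, shJUP over shNC was 0.725, 0.794 and 0.757. MT-CO3 had the lowest log2 fold change of the 54 members.

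MT-CO1 (ENSG00000198804), with the highest level per length of the 13, stood at 8006, 10822 and 8274 CPM in shJUP, against 10692, 13698 and 10253 CPM in shNC. The groups overlapped by shJUP 2, which lay above shNC 1 and 3. The ratios within numbers were 0.749, 0.790 and 0.807, and the log2 fold change was -0.35 (SE 0.17, edgeR adjusted p = 0.54). With the number as a block, DESeq2 called MT-CO1 (adjusted p = 0.010) and MT-CO3 (adjusted p = 0.0029), 2 of 13 mitochondrial members, in a fit that called 692 of 13713 genes (5.05%, of which 2.81 percentage points were lower). edgeR with the same block, which called 1 of 15867 genes (0.0063%), called neither (adjusted p = 0.16 and 0.14). MT-CO2 stood at 2490, 3598 and 2962 CPM in shJUP, against 3135, 3939 and 3327 CPM in shNC, with a log2 fold change of -0.20 (SE 0.16). It was -0.076 without shJUP 1, -0.099 without shNC 2 and -0.35 without shJUP 2, and that of MT-CO1 was -0.21 without shNC 2.

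The complex III gene MT-CYB encodes cytochrome b, the one mitochondrial subunit of that complex. Its levels were 1543, 2139 and 1998 CPM in shJUP and 2381, 2415 and 2219 CPM in shNC, which did not overlap. The log2 fold change was -0.30 (SE 0.14, edgeR adjusted p = 0.53), and -0.17 without shJUP 1.

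The complex V genes MT-ATP6 and MT-ATP8 encode parts of the membrane portion of ATP synthase. MT-ATP6 stood at 1682, 2371 and 2101 CPM in shJUP, against 2472, 2773 and 2406 CPM in shNC, with no overlap but with shJUP 2 just under shNC 3. Its log2 fold change was -0.31 (SE 0.15, edgeR adjusted p = 0.54), and -0.31 again with the counts of the nuclear copies added. MT-ATP8, which holds the overlap printed above, stood at 338, 609 and 500 CPM in shJUP, against 604, 744 and 483 CPM in shNC. Its groups overlapped, with a log2 fold change of -0.34 (SE 0.24). Without shJUP 1 the values were -0.19 for MT-ATP6 and -0.13 for MT-ATP8, and for MT-ATP8 -0.17 without shNC 2 and -0.54 without shJUP 2.

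The 7 mitochondrial genes of complex I, which encode the core of its membrane arm, were less alike. Their median log2 fold change was -0.19, against -0.35 for the 3 genes of complex IV. MT-ND5 stood at 2395, 3128 and 2972 CPM in shJUP, against 3621, 3455 and 3391 CPM in shNC, which did not overlap (log2 fold change -0.30, SE 0.13, unadjusted p = 0.048, edgeR adjusted p = 0.49). MT-ND6 stood at 355, 562 and 542 CPM in shJUP, against 623, 651 and 577 CPM in shNC, also with no overlap (log2 fold change -0.34, SE 0.18, edgeR adjusted p = 0.57). Without shJUP 1 the values were -0.19 for MT-ND5 and -0.16 for MT-ND6.

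MT-ND4 lay lower in shJUP in each pair of the same number, though for number 2 by little. It stood at 3724, 5172 and 4507 CPM in shJUP, against 5528, 5190 and 4878 CPM in shNC (log2 fold change -0.22, SE 0.14). MT-ND4L, which shares its end with MT-ND4, stood at 681, 923 and 846 CPM in shJUP, against 1007, 991 and 803 CPM in shNC (log2 fold change -0.19, SE 0.15). Both overlapped between groups. Without shJUP 1 the values were -0.099 for MT-ND4 and -0.074 for MT-ND4L, and without shJUP 2 they were -0.34 and -0.29.

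The remaining complex I genes differed by less than their standard error. MT-ND1 stood at 1984, 2445 and 2456 CPM in shJUP, against 2318, 2427 and 2419 CPM in shNC (log2 fold change -0.06, SE 0.12). MT-ND2 stood at 2385, 3103 and 3162 CPM in shJUP, against 3313, 3118 and 2830 CPM in shNC (log2 fold change -0.10, SE 0.14). MT-ND3 stood at 729, 1034 and 947 CPM in shJUP, against 874, 1007 and 796 CPM in shNC (log2 fold change 0.02, SE 0.16). In all 3 genes shJUP 1 was low and shJUP 2 and 3 lay at or above the mean of the controls.

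Counted over the 13 mitochondrial members, 2 had an unadjusted p under 0.05 and a lower level in shJUP (MT-CO3 and MT-ND5), where 4.87% of all tested genes did. The groups did not overlap, with shJUP lower, for 5 members (MT-CO3, MT-CYB, MT-ATP6, MT-ND5 and MT-ND6), where 8.65% of all genes did. In each of the 3 pairs of the same number, shJUP was lower for 8 members, where 22.5% of all genes were. As these genes share libraries and transcripts, the counts are a description.

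Per length of transcript (GENCODE 29), the mean shNC levels of the 13 ran from 1175 CPM per kb for MT-ND6 to 7489 CPM per kb for MT-CO1, with a median of 2962 CPM per kb. MT-CO3 came next after MT-CO1, at 6189 CPM per kb, and MT-CO2 stood at 5069 CPM per kb. So the 3 complex IV genes led the order of levels. For the 38 nuclear members with a principal transcript in that release, the shortest one taken, the median was 51.0 CPM per kb and the highest 334 CPM per kb (COX6C). These lengths need not be those the authors used, and how evenly oligo(dT) selection took the mRNAs was not tested.

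The mitochondrial rRNAs, which carry short A tails, were read in these libraries as well. MT-RNR2 (16S rRNA) stood at 5439, 9643 and 5477 CPM in shJUP, against 8696, 12617 and 9960 CPM in shNC. Its log2 fold change was -0.61 (SE 0.26, unadjusted p = 0.048, edgeR adjusted p = 0.49), and DESeq2 with the block called it (adjusted p = 5.6e-05). DESeq2 without the block (0.30) and edgeR with it (0.12) did not. The groups overlapped by shJUP 2, which lay above shNC 1. The log2 fold change of MT-RNR2 was -0.93 without shJUP 2, -0.46 without shJUP 1 and -0.45 without shNC 2. Within numbers, shJUP over shNC was 0.626, 0.764 and 0.550. MT-RNR1 (12S rRNA) stood at 407, 744 and 536 CPM in shJUP, against 464, 668 and 662 CPM in shNC, with a log2 fold change of -0.09 (SE 0.24).

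Both rRNAs together took 0.600%, 1.03% and 0.608% of the counts in shJUP and 0.913%, 1.30% and 1.05% in shNC. Libraries with more rRNA are in part those with more mitochondrial mRNA, and in each group number 2 held the largest share of both. The rRNA counts over those of the 13 mitochondrial members were 0.198, 0.258 and 0.173 in shJUP and 0.223, 0.289 and 0.273 in shNC. The part of RNA selection in the mitochondrial values was not tested. None of the 22 mitochondrial tRNA genes passed the filter on low counts.

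Complex II, the complex without a mitochondrial gene, held SDHB, the nuclear member with the highest log2 fold change. SDHB (ENSG00000117118), the iron-sulfur subunit, stood at 73.1, 72.3 and 85.4 CPM in shJUP 1, 2 and 3, against 57.6, 53.1 and 62.5 CPM in shNC 1, 2 and 3. The groups did not overlap, the ratios within numbers were 1.27, 1.36 and 1.37, and the log2 fold change was 0.41 (SE 0.12, unadjusted p = 0.0085, edgeR adjusted p = 0.40). DESeq2 with the number as a block called SDHB (adjusted p = 0.031), the one nuclear member of 41 it called, in a fit that called 2.23% of all genes higher. Without the block it did not (adjusted p = 0.12), and neither did edgeR with it (0.11).

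SDHA (ENSG00000073578), the flavoprotein subunit that binds succinate, stood at 129, 149 and 144 CPM in shJUP, against 112, 116 and 113 CPM in shNC. The ratios within numbers were 1.15, 1.29 and 1.28, and the log2 fold change was 0.31 (SE 0.10, unadjusted p = 0.016, edgeR adjusted p = 0.42). SDHA is uncertain, since its near-identical copies held 13.3% to 23.8% of the counts of SDHA and copies together. With the copies added its log2 fold change was 0.23, which lies below ATP5MC1 (0.27) and NDUFB3 (0.25), so SDHA is second to SDHB among the nuclear members only without the copies.

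The membrane anchors SDHC and SDHD lay near 0. SDHC stood at 74.4, 89.7 and 98.4 CPM in shJUP, against 90.3, 86.9 and 95.2 CPM in shNC (log2 fold change -0.05, SE 0.13). SDHD stood at 72.3, 74.5 and 72.9 CPM in shJUP, against 81.9, 66.0 and 76.0 CPM in shNC (log2 fold change -0.03, SE 0.11). The difference between the catalytic pair and the anchor pair was not tested.

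**Figure D4:**
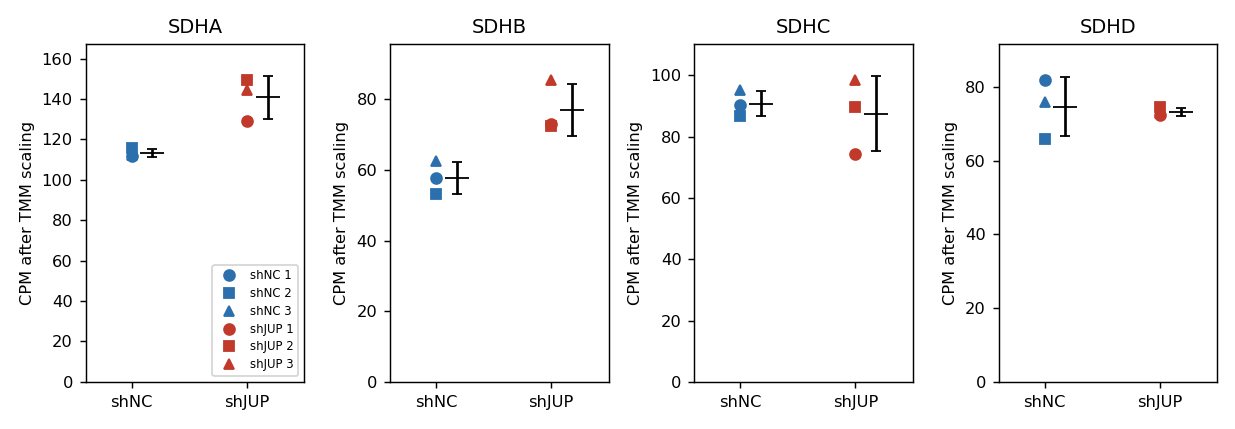
CPM after TMM scaling (y axes, each from 0) of the 4 genes of complex II in shNC (blue) and shJUP (red) 1 (circle), 2 (square) and 3 (triangle), with mean and SD (black, n = 3). The shJUP libraries lie above the controls for SDHA and SDHB, and the groups overlap for SDHC and SDHD.

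The promoters of the complex II genes are shown because SDHA and SDHB had non-overlapping groups, beside SDHD, whose groups overlapped. This is not particular to complex II, since ATP5F1B and ATP5PB of complex V did not overlap either, with shJUP higher. Of the 41 nuclear members 33 had an entry in the RefSeq promoter table (GRCh38.p14), which spans 250 bases before to 50 after the start of a gene. An NRF1-type motif, GCGCANGCG on either strand, was found in 10 of the 33 (30.3%) and in 9.02% of the 27305 genes of the table. An ETS-type motif, CCGGAAG on either strand, was found in 12 of the 33 (36.4%) and in 12.2% of all. The shares over the promoter table include genes that were not tested here, whereas all members were tested. Capitals mark the motif.
SDHA, chr5:218139-218177, plus strand, NRF1-type: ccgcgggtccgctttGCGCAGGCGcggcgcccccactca
SDHD, chr11:112086748-112086786, plus strand, NRF1-type: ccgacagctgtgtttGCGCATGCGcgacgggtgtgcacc
SDHD, chr11:112086781-112086817, plus strand, ETS-type: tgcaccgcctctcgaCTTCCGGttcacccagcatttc
SDHB, chr1:17054139-17054175, minus strand, ETS-type: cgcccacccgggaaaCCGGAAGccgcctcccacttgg

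SDHD thus held both motifs, which do not overlap there, SDHA the first and SDHB the second. A match is of letters and says nothing of binding. The median log2 fold change was 0.05 for the 10 nuclear members with the NRF1-type motif and 0.06 for those without, and 0.06 with and without the ETS-type motif. SDHC is among the 8 members without an entry, with ATP5F1B, ATP5F1D, COX6C, CYC1, NDUFA4, NDUFB5 and UQCRB.

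The 14 nuclear subunits of complex I had a median log2 fold change of 0.05, with 11 above and 3 below 0. NDUFB3, a membrane-arm subunit, stood at 46.1, 42.5 and 54.3 CPM in shJUP, against 46.1, 32.8 and 41.1 CPM in shNC (log2 fold change 0.25, SE 0.16, edgeR adjusted p = 0.63), with overlap. NDUFB5, also of the membrane arm, stood at 41.9, 46.7 and 46.0 CPM in shJUP, against 47.5, 52.0 and 49.4 CPM in shNC, with no overlap (log2 fold change -0.15, SE 0.10, edgeR adjusted p = 0.65). Without 1 library the values moved to 0.13 for NDUFB3 (without shNC 2; 0.15 without shJUP 3) and -0.095 for NDUFB5 (without shJUP 1). These 2 were the complex I members with the smallest p, and the other 12 lay nearer to 0.

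The 6 nuclear subunits of complex III had a median of 0.09, with 5 above 0. CYC1, cytochrome c1, stood at 43.2, 48.0 and 58.7 CPM in shJUP, against 44.1, 44.5 and 46.0 CPM in shNC (log2 fold change 0.15, SE 0.13). The value of CYC1 was 0.022 without shJUP 3 and 0.25 without shJUP 1. The Rieske iron-sulfur protein gene UQCRFS1 stood at 68.3, 70.9 and 74.2 CPM in shJUP, against 75.6, 79.5 and 74.9 CPM in shNC (log2 fold change -0.11, SE 0.09), with no overlap by a narrow gap. The edgeR adjusted p was 0.71 for each.

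The 10 nuclear subunits of complex IV had a median of 0.09, with 9 above 0, where the 3 mitochondrial ones lay at -0.35. COX5A stood at 52.9, 64.3 and 67.6 CPM in shJUP, against 49.7, 54.6 and 53.2 CPM in shNC (log2 fold change 0.23, SE 0.12, edgeR adjusted p = 0.57). COX6A1 stood at 108, 123 and 123 CPM in shJUP, against 97.0, 106 and 101 CPM in shNC, with no overlap (log2 fold change 0.22, SE 0.10, edgeR adjusted p = 0.54). Both were higher in shJUP in each pair of the same number, as were COX4I1 and COX8A.

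The 7 nuclear subunits of complex V had a median of 0.02. ATP5F1D, the delta subunit of the central stalk, was the lowest nuclear member. It stood at 10.3, 12.0 and 11.9 CPM in shJUP, against 12.3, 14.8 and 15.5 CPM in shNC, with no overlap by a narrow gap (log2 fold change -0.32, SE 0.16, edgeR adjusted p = 0.56). ATP5PB, a subunit of the peripheral stalk, stood at 165, 153 and 193 CPM in shJUP, against 147, 140 and 150 CPM in shNC, also with no overlap (log2 fold change 0.23, SE 0.12, edgeR adjusted p = 0.56, and 0.13 without shJUP 3). The catalytic beta subunit ATP5F1B stood at 613, 565 and 577 CPM in shJUP, against 531, 509 and 549 CPM in shNC (log2 fold change 0.14, SE 0.09), and the alpha subunit ATP5F1A at 367, 418 and 433 CPM and at 420, 418 and 413 CPM (log2 fold change -0.04, SE 0.10).

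Counted over the 41 nuclear members, 29 had a log2 fold change between -0.15 and 0.15. An unadjusted p under 0.05 with a higher level in shJUP was found for 2 (SDHA and SDHB), where 5.17% of all genes did so, and for 0 with a lower level. The groups did not overlap for 5 with shJUP higher (SDHA, SDHB, COX6A1, ATP5F1B and ATP5PB), against 8.39% of all genes, and for 3 with shJUP lower (NDUFB5, UQCRFS1 and ATP5F1D), against 8.65%. All 3 pairs of the same number were higher in shJUP for 10 and lower for 4, against 21.3% and 22.5% of all genes.

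Further genes of mitochondria were read from lists of other respiratory subunits, assembly factors and the upkeep of mitochondrial DNA and RNA, and edgeR called 0 of their 235 tested genes. The 36 tested other subunits had a median log2 fold change of 0.06, like the 41 members, with 27 above 0. NDUFB9, a complex I subunit, was higher in shJUP with 101, 98.8 and 111 CPM against 72.7, 80.9 and 76.7 CPM in shNC (log2 fold change 0.44, SE 0.10, edgeR adjusted p = 0.38). DESeq2 called NDUFB9 without the block (adjusted p = 0.028), in a fit that called 0.782% of all genes higher, and with it (0.020), and edgeR with the block did not (0.12). ATP5MK, a small subunit of complex V, stood at 32.1, 36.2 and 41.7 CPM in shJUP, against 28.5, 25.1 and 29.7 CPM in shNC (log2 fold change 0.40, SE 0.14, edgeR adjusted p = 0.44). COX6B2, the testis form of a complex IV subunit and the one of 6 tissue forms that passed the filter, stood at 2.90, 3.09 and 2.07 CPM in shJUP, against 1.77, 1.22 and 1.03 CPM in shNC (log2 fold change 1.00, SE 0.33, edgeR adjusted p = 0.43).

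The 48 assembly factors, which build the complexes, had a median of 0.16, with 36 above 0. Their groups did not overlap for 9 with shJUP higher and 0 with shJUP lower, against 8.39% and 8.65% of all genes. CMC1, a complex IV factor, stood at 17.8, 17.7 and 16.3 CPM in shJUP, against 12.8, 14.3 and 12.6 CPM in shNC (log2 fold change 0.38, SE 0.13, edgeR adjusted p = 0.44). NDUFAF4, a complex I factor, stood at 33.1, 28.9 and 36.2 CPM in shJUP, against 27.6, 25.0 and 24.9 CPM in shNC (log2 fold change 0.34, SE 0.13, edgeR adjusted p = 0.45).

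The 77 mitochondrial ribosomal proteins translate the mRNAs of the 13 mitochondrial members and are themselves nuclear. Their median was 0.13, with 63 above and 14 below 0. Non-overlapping groups were found for 11 with shJUP higher and 1 lower, against 8.39% and 8.65% of all genes. MRPL33 stood at 48.0, 76.3 and 56.0 CPM in shJUP, against 24.6, 46.8 and 30.9 CPM in shNC (log2 fold change 0.82, SE 0.27, edgeR adjusted p = 0.43), and DESeq2 with the block called it (adjusted p = 3.2e-06), whereas DESeq2 without the block (0.12) and edgeR with it (0.068) did not. MRPL49 stood at 61.8, 56.0 and 64.7 CPM in shJUP, against 38.5, 47.3 and 47.2 CPM in shNC (log2 fold change 0.46, SE 0.12, edgeR adjusted p = 0.40).

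The 15 genes listed under transcription and copying of mitochondrial DNA had a median of 0.03, with 8 above and 7 below 0. MTERF4, in this list though a factor of mitochondrial ribosome assembly, stood at 19.8, 15.4 and 18.3 CPM in shJUP, against 23.5, 20.9 and 22.1 CPM in shNC (log2 fold change -0.32, SE 0.14, edgeR adjusted p = 0.51). MTERF1, which binds mitochondrial DNA at a transcription termination site, stood at 8.09, 6.72 and 6.85 CPM in shJUP, against 10.1, 6.64 and 9.58 CPM in shNC (log2 fold change -0.28, SE 0.22, with -0.17 without shNC 1 and -0.45 without shNC 2).

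The 18 genes that process or stabilise mitochondrial RNA had a median of 0.09. PDE12, a mitochondrial phosphodiesterase that removes poly(A), stood at 62.2, 46.9 and 55.0 CPM in shJUP, against 35.9, 34.8 and 41.9 CPM in shNC. Its groups did not overlap, the ratios within numbers were 1.73, 1.35 and 1.31, and the log2 fold change was 0.54 (SE 0.14, unadjusted p = 0.0058, edgeR adjusted p = 0.40). DESeq2 with the block called PDE12 (adjusted p = 0.021) and without it did not (0.071), nor did edgeR with the block (0.12). PNPT1, the mitochondrial polynucleotide phosphorylase, stood at 78.0, 63.5 and 80.4 CPM in shJUP, against 65.5, 45.0 and 63.2 CPM in shNC (log2 fold change 0.35, SE 0.17, edgeR adjusted p = 0.54, and 0.20 without shNC 2).

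The 8 tested regulators of mitochondrial biogenesis had a median of 0.05. Of the PGC-1 coactivators, PPARGC1A stood at 0.725, 0.800 and 0.319 CPM in shJUP, against 0.663, 1.59 and 0.925 CPM in shNC (log2 fold change -0.78, SE 0.49). PPARGC1B stood at 11.0, 8.80 and 8.71 CPM in shJUP, against 7.18, 9.51 and 7.18 CPM in shNC (log2 fold change 0.26, SE 0.20). Both overlapped between groups. Without shNC 2 the values were -0.37 for PPARGC1A and 0.40 for PPARGC1B, without shJUP 3 PPARGC1A was at -0.47, and without shJUP 1 PPARGC1B was at 0.14.

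The 16 genes listed as general mitochondrial content (among them import channels, chaperones and matrix enzymes) had a median of 0.16, with 14 above 0. VDAC2, a channel of the outer membrane, stood at 226, 205 and 224 CPM in shJUP, against 191, 170 and 196 CPM in shNC (log2 fold change 0.24, SE 0.10, edgeR adjusted p = 0.51). TIMM44, of the import motor, stood at 37.3, 26.9 and 40.2 CPM in shJUP, against 24.5, 22.1 and 30.9 CPM in shNC (log2 fold change 0.43, SE 0.20, edgeR adjusted p = 0.53). DESeq2 with the block called 3 of the 16, all higher, where it called 2.23% of all genes higher. They are HSPA9 (adjusted p = 0.0038), CYCS (0.0051) and TOMM40 (0.022), named after their values were seen. DESeq2 without the block and edgeR with it called none of these 3 (adjusted p from 0.11 to 0.51).

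The 14 tested genes listed under mitochondrial stress response, a name that need not mean a mitochondrial trigger, had a median of -0.14, with 5 above and 9 below 0. ATF4, a transcription factor of that list, stood at 325, 256 and 263 CPM in shJUP, against 357, 422 and 383 CPM in shNC, with no overlap (log2 fold change -0.46, SE 0.13, edgeR adjusted p = 0.40). CHAC1, a target of ATF4, stood at 12.6, 6.56 and 5.15 CPM in shJUP, against 15.8, 19.1 and 15.3 CPM in shNC (log2 fold change -1.05, SE 0.33, edgeR adjusted p = 0.42). DESeq2 with the block called 5 of the 14, all lower, where it called 2.81% of all genes lower. Beside ATF4 (adjusted p = 0.033) and CHAC1 (0.011) these were the amino acid synthesis genes PSAT1 (0.0040), PHGDH (0.012) and ASNS (0.035), named after their values were seen. DESeq2 without the block and edgeR with it called none of these 5 (adjusted p from 0.094 to 0.39). DDIT3 and TRIB3 of the same list had log2 fold changes of 0.54 and 0.57 and were not called.

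**Figure D5:**
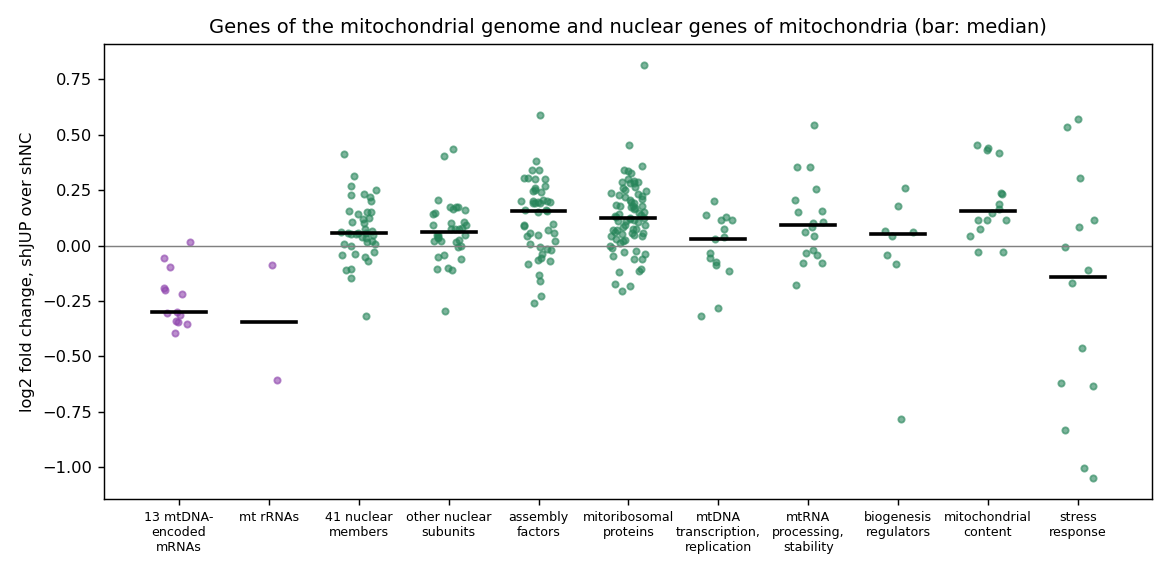
Log2 fold change, shJUP over shNC, of each tested gene (points) with the median of its list (bar). Purple marks the 13 mitochondrial members and 2 rRNAs, and green the nuclear lists with more than 1 tested gene. The medians of the mitochondrial genes are below 0, those of the nuclear lists lie between 0.03 and 0.16, and that of the stress response is -0.14.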

How the data were processed

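RNA of 6 SKOV3 cultures was sequenced after oligo(dT) selection on a DNBSEQ instrument, per the labels' protocols. The authors deposited expected counts per Ensembl gene, with no scaling. The submitters' processing notes name RSEM 1.3.3 and STAR 2.7.9a. Build and annotation, and whether counting used strand, were not given in the sources used here. From 60695 rows, 31 without a gene ID were left out. Counts were rounded and tested with edgeR 4.0.16 (R 4.3.3; filterByExpr, TMM, quasi-likelihood, threshold 0.05), and each SE was derived from the log2 fold change and its F statistic. DESeq2 1.42.0 and limma 3.58.1 were alternatives. Only the edgeR and DESeq2 fits without a block were tried on simulated data, with set changes larger than those of the members.

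The main edgeR fit held the group only. Libraries of the same number were treated as pairs in the blocked fits, the ratios within numbers and the counts of pairs. Same-numbered libraries correlated in their deviations from group means (0.18, 0.58 and 0.28). However, shJUP 3 correlated more with shNC 1 (0.46) and shJUP 1 with shNC 3 (0.21) than with their own numbers. No label explains the numbers. Members and lists were chosen with earlier results of these data known. Named were all 13 mitochondrial members, the 2 nuclear members of each complex and the 2 genes of each list with the smallest p, the 2 highest and 2 lowest nuclear members, and members called by an alternative. SDHC, SDHD, ATP5F1A, ATP5F1B, COX4I1, COX8A, COX6C, DDIT3 and TRIB3 were added for context after their values were seen.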

Additional observations from a re-analysis of the deposited data

How the results depend on the processing

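The comparison was run under 18 alternatives. The number of genes called, 0 with edgeR, was 5 with no filter, 200 with DESeq2, 1 with the replicate block in edgeR, 692 with the replicate block in DESeq2, and 49 without both number-2 libraries. Of the mitochondrial members 2 and of the nuclear members 1 were called by DESeq2 with the replicate block, and 0 by each other alternative. The blocked fits left the median log2 fold change of the mitochondrial members at -0.31 (edgeR) and -0.30 (DESeq2). That median stayed below 0 in each alternative, from -0.38 to -0.13 when 1 library was left out (-0.13 without shJUP 1, -0.21 without shNC 2) and -0.27 with library totals as the only scaling. The median of the nuclear members stayed above 0, from 0.03 (without shJUP 3) to 0.13 (without shJUP 1) when 1 library was left out, and 0.09 both with library totals as the only scaling and without shNC 2. Log2 fold changes crossed 0 when single libraries were left out for MT-ND1 (-0.11 to 0.041), MT-ND2 (-0.17 to 0.025), MT-ND3 (-0.091 to 0.16) and MT-RNR1 (-0.34 to 0.10), and for no other of the 43 named genes in any alternative. Adding the counts of nuclear copies, an alternative chosen after seeing the data, left both medians at -0.30 and 0.06. The biological coefficient of variation was 24.2% with 3 libraries a group, and a p that misses the threshold does not show equal levels.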
